A study of Mus musculus with 2 samples.

Results

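Lysosomes break down proteins, lipids and sugars inside a compartment kept acid by a proton pump, the vacuolar ATPase. The pump has a V1 part, which hydrolyses ATP on the cytosolic face, and a V0 part, which carries protons through the membrane. Cathepsins are proteases that are mostly activated in this acid lumen, and the lysosome-associated membrane proteins (LAMPs) are heavily glycosylated proteins that line the membrane. Many of their genes share an E-box-like promoter element, known as the CLEAR element, which is read by TFEB, TFE3 and MITF. WASH promotes branched actin on endosomes and serves the sorting and recycling of membrane proteins upstream of the lysosome.

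The genes described here are the cathepsins, LAMPs and vacuolar ATPase subunits on a mouse expression array. They were taken by symbol: every name of the form Cts plus a letter or number, Lamp plus a number, or Atp6v. Ctsg, a serine protease of neutrophil granules, was left out. The names gave 46 genes of the 24171 on the array, measured by 76 of its 44170 sequences. By role they were 9 broadly expressed lysosomal cathepsins, 4 tissue-restricted cathepsins, 9 placenta-only cathepsins, 2 LAMPs, 8 broadly expressed V1 subunits, 7 broadly expressed V0 subunits and 7 tissue-restricted subunit isoforms. Lamp3 was not analysed here.

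The study compared LT-HSC (long-term haematopoietic stem cells, which sustain blood formation from the marrow) from a WASH knockout mouse line with those of wild type controls. Both groups were of the C57/BL6 strain, were kept free of specific pathogens, and had their cells sorted from femur marrow by flow cytometry. Each genotype had 1 array, which gives no spread between animals, no standard error and no test. The promoter or cell type that drove the deletion, the animals' age and the number of animals behind an array are not given in the sources used here. The targeted gene, Washc1, was at 119 (control) and 107 (knockout), and both values lay under the array medians of 137. Where its probes lie relative to the deletion is not known, so these values do not check the genotype labels.

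The values are linear intensities, and differences are given on the log2 scale as knockout minus control. A gene with several sequences is described by its brightest one, that with the highest mean log2 value. It is called detected when it exceeded the array's median intensity on at least 1 array, which held for 16245 genes. Probes of random sequence gave background levels of 71.3 (control) and 75.7 (knockout). Where a sequence was at or below that level on 1 array, its fold is given as a bound ("at least"). Counts, medians and ranges over several sequences hold such values as measured. As a yardstick within the arrays, separate detected sequences of 1 gene had a pooled SD of 0.66 in their log2 differences over 4969 genes. That SD holds probe noise and transcript differences but nothing of the spread between animals.

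The sorted cells were checked against marker lists. Of 16 stem cell markers 12 were detected, 7 lower and 5 higher in the knockout with a median of -0.18, and the stem cell receptor gene Kit was at 398 for the control and 489 for the knockout. The transcription factor genes Mecom (350 and 163) and Prdm16 (82.8 and 194) were at least 2-fold lower and higher, respectively. Each made 8.33% of the detected stem cell markers. Of all detected genes 7.29% were at least 2-fold lower and 6.41% at least 2-fold higher. Genes of other blood cells were present too and differed between the arrays. Of 20 neutrophil markers 17 were detected, 6 of them (35.3%) lower by 2-fold or more in the knockout, beside the 7.29% of all genes. Their median was -0.92, their summed intensity was 146019 for the control against 57638 for the knockout, and S100a8, a calgranulin of neutrophils, was at 47334 against 16696. Of 18 erythroid markers on the array 17 were detected and 13 (76.5%) were at least 2-fold higher, beside the 6.41% of all genes. The median was 1.60, the summed intensity was 18968 against 92527, and Hbb-b1, an adult beta-globin, was at 5699 against 43218. Of 16 macrophage and osteoclast markers 10 were detected and 4 (40%) were at least 2-fold higher, again beside 6.41%. Their median was 0.58, and the summed intensity was 8568 against 10021. The complement gene C1qa was at 138 against 311, while C1qc was at 151 against 178 and C1qb, not detected, at 133 against 89.0. The brightest of these markers, Adgre1, was at 6543 against 7056. Of 12 cytotoxic lymphocyte markers 6 were detected, with a median of -0.01 and a summed intensity of 6940 against 6445. At least 2-fold lower was 1 (16.7%), the granzyme gene Gzmb at 756 against 121. At least 2-fold higher was also 1 (16.7%), the receptor gene Klrb1c at 309 against 752. Of 11 mast cell, basophil and eosinophil markers 6 were detected, 1 of them (16.7%) at least 2-fold lower and none at least 2-fold higher. The median was -0.53 and the summed intensity 4560 against 3393. Cpa3, the mast cell carboxypeptidase, stayed under the random-sequence level for control and knockout alike. Neutrophils and macrophages are rich in several cathepsins. The part of these cells in the lysosomal values was not tested, and fewer cells of a type and less RNA per cell cannot be told apart in such samples.

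Of the 46 genes 35 were detected, 37 lay above the random-sequence level on both arrays, 3 on 1 array and 6 on neither. Among those detected, 4 were lower in the knockout by 2-fold or more: the dipeptidyl peptidase Ctsc, the membrane protein gene Lamp1, the proton channel subunit Atp6v0b and Ctsll3. They make 11.4% of the detected members, where 7.29% of all detected genes were at least 2-fold lower. None was at least 2-fold higher, where 6.41% of all detected genes were. Lower by any size were 19 of the 35, near the 48.3% of all detected genes, and the members' median of -0.15 stood beside 0.03 for all genes. At 1.5-fold, 10 members were lower and 2 were higher, but the share of all genes at that size was not counted.

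Counted by sequence, 43 of the 76 were detected, and 8 of these were at least 2-fold lower (18.6%) beside 8.20% of all detected sequences. Only 1, a sequence of Atp6v0a1, was at least 2-fold higher (2.33%) beside 6.77%. The lower sequences were both of Ctsc, 1 each of Lamp1, Atp6v0b and Ctsll3, and a further sequence each of Ctsh, Ctss and Atp6v0a2, whose brightest sequences differed by less. Sequences of a gene share its RNA and are not independent of each other.

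**Figure D1:**
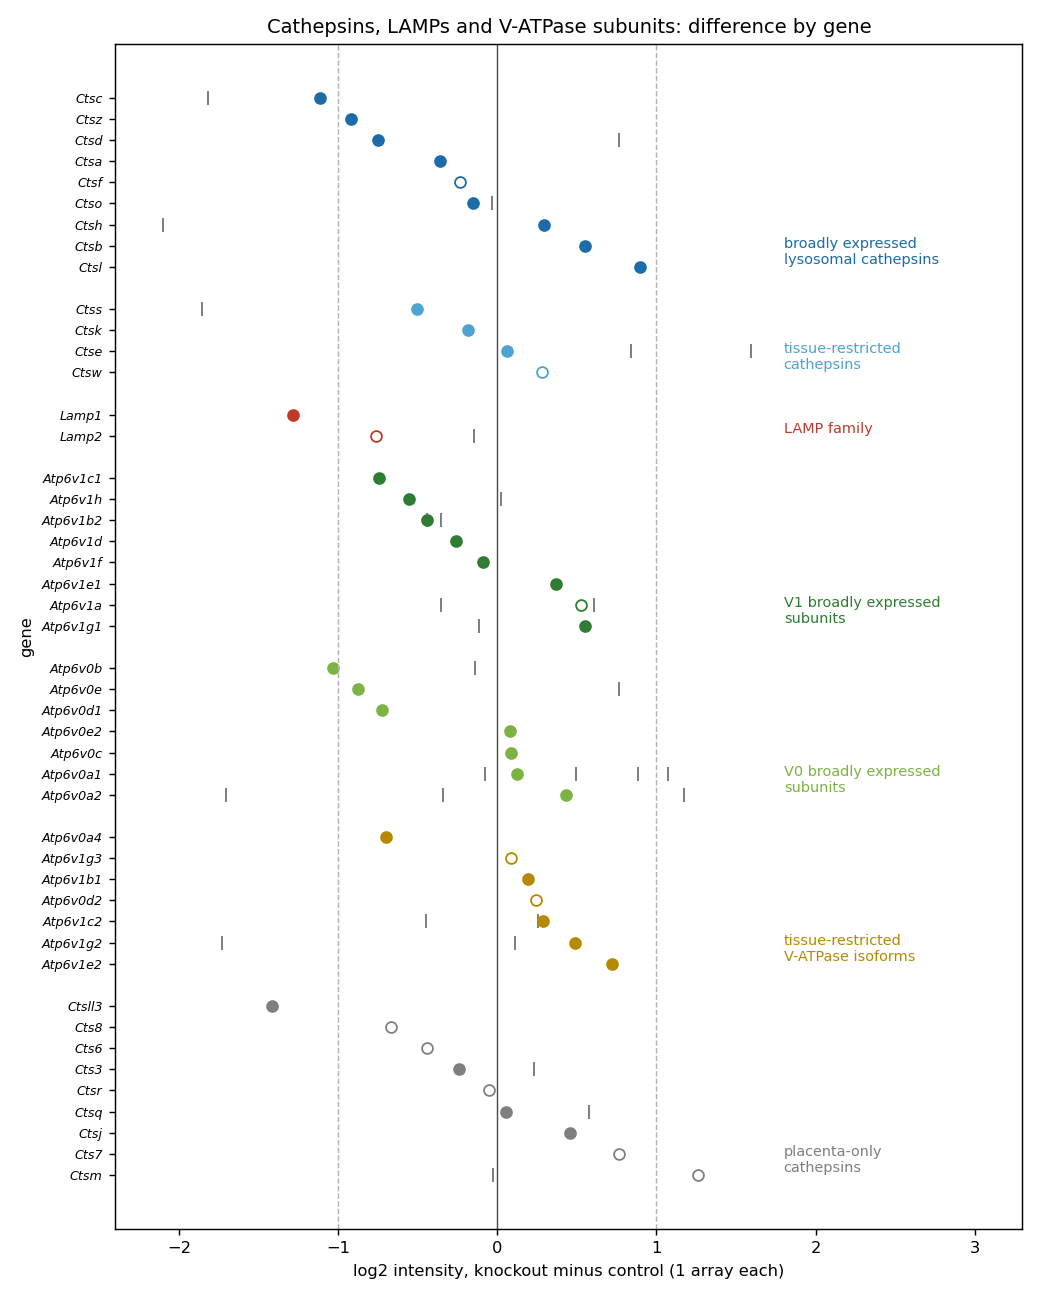
Log2 difference in intensity, knockout minus control, for each of the 46 genes (rows, grouped by role, 1 array per genotype). Circles are the brightest sequence, filled where the gene was detected and open where it was not, and vertical ticks are further sequences of the gene. Dashed lines mark 2-fold, and values under background are plotted as measured. Lamp1, Ctsc, Atp6v0b and Ctsll3 lie left of the lower line, no filled circle lies right of the upper one, and the ticks of Ctsh, Ctss and Atp6v0a2 lie far from their circles.

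Promoters of the members were searched for the core of the CLEAR element, since it is the sequence these genes are known to share. RefSeq promoter windows of 300 bases (250 before and 50 after the gene start, build GRCm38.p6) were given for 36 of the 46 genes. The letters searched on both strands were TCACGTGA, the shorter TCACGTG, which lies inside it, and the E-box CACGTG, which lies inside both. The windows below are those of the members with TCACGTG, 1 for each gene and a further one for Lamp1, which holds that match in 4 places. Each runs 5′ to 3′ on the gene's own strand, with the matched letters in capitals. Lamp1, Ctsa and Atp6v0b hold further matches that stand in lower case in these windows.
Lamp1, chr8:13159073-13159131, plus strand: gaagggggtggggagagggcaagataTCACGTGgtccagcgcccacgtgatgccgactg
Lamp1, chr8:13159119-13159177, plus strand: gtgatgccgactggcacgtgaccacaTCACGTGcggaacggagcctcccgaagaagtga
Ctsd, chr7:142387893-142387952, minus strand: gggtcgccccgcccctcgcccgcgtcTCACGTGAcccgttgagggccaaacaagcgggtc
Ctsa, chr2:164833734-164833793, plus strand: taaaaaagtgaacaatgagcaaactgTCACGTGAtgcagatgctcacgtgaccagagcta
Atp6v0b, chr4:117887334-117887392, minus strand: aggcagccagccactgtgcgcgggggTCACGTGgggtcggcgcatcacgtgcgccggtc
Atp6v0d1, chr8:105566035-105566094, minus strand: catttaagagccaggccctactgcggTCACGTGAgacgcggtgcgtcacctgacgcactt
Atp6v0e, chr17:26676372-26676425, plus strand: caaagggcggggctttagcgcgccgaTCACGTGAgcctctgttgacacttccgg
Atp6v1a, chr16:44139358-44139417, minus strand: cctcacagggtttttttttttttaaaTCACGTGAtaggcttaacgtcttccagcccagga

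The 8 letters were found in 5 of the 27 members with a window that are not placental cathepsins (18.5%), namely Ctsa, Ctsd, Atp6v0d1, Atp6v0e and Atp6v1a, and in 1.12% of the 27025 genes of the promoter table. The 7 letters were found in 7 of the 27 (25.9%), adding Lamp1 and Atp6v0b, beside 4.29% of all genes. CACGTG was found in 9 of the 27 (33.3%), adding Ctsl and Ctsf, beside 8.09%. None of the 9 placental cathepsins held the longer letters, and 1 of them, Ctsll3, held CACGTG. A match is a run of letters and not a measured binding site, and no match says only that the letters are not in this window.

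The detected members with the 7 letters were all on the lower side. All 6 of them (Lamp1, Atp6v0b, Atp6v0e, Ctsd, Atp6v0d1 and Ctsa) were lower in the knockout, and their median was -0.81. Of the 17 other detected members with a window, placental cathepsins aside, 8 were lower and the median was 0.08. Across the transcriptome no such split was seen: the 648 detected genes with these letters had a median of -0.00 and 50.2% were lower, and of the 10563 without them 48.3% were lower, with a median of 0.03. Atp6v1a, which holds the 8 letters, was not detected and differed by 0.53 (77.3 and 111). Among the 6 lower members, Lamp1, Atp6v0b and Ctsd had knockout values near background. Undetected second sequences of Ctsd and Atp6v0e went the other way. Detected members without a window stood on both sides. Ctsb, Ctsh, Ctse, Atp6v0a2 and Atp6v1g1 were higher on their brightest sequences, and Atp6v1b2, Atp6v1c1 and Atp6v1h were lower. Members were divided by these letters with their differences known, and the contrast was not tested.

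**Figure D2:**
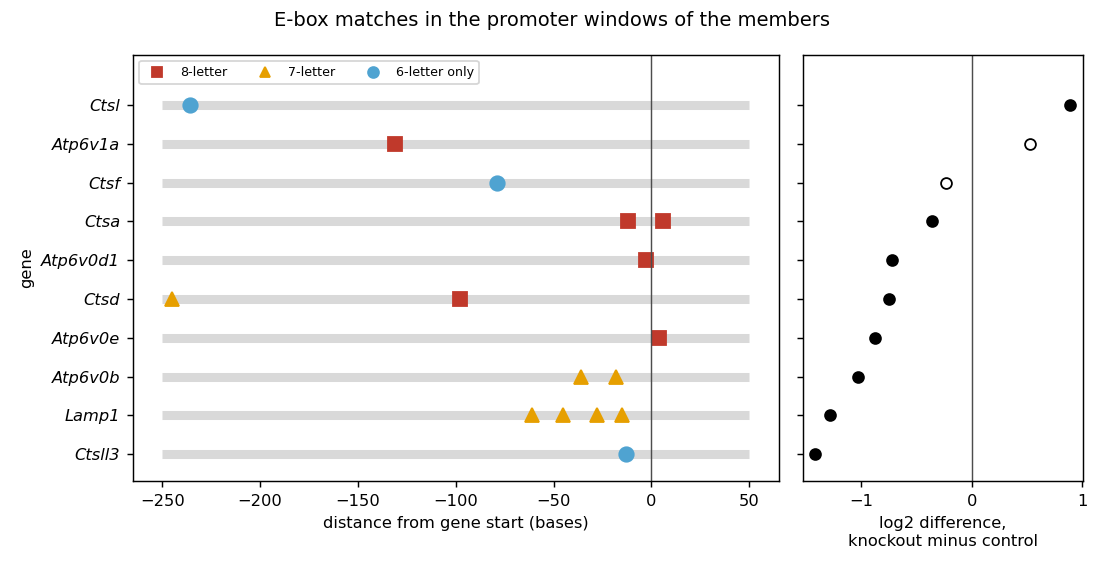
Left, places of E-box matches in the 300-base promoter windows (grey bars) of the 10 members that hold one, as distance from the gene start in bases; squares are the 8-letter match, triangles the 7-letter match and circles the 6 letters alone. Right, log2 difference in intensity of the same gene, knockout minus control, open where the gene was not detected. The detected genes with squares or triangles all lie below 0, and Ctsl, with the 6 letters alone, lies at 0.90.

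Among the broadly expressed cathepsins 8 of 9 were detected, 5 lower and 3 higher in the knockout, with a median of -0.26. Ctsc, which encodes the dipeptidyl peptidase that activates the serine proteases of immune granules, was at 1443 for the control and 666 for the knockout, a log2 difference of -1.11 (chromosome 7, 95426644 to 95439900, MM9). Its other sequence gave 307 and 87.2, a difference of -1.82, so both sequences were more than 2-fold lower. The knockout value of that dimmer sequence was close to the random-sequence level. Ctsg, a target of Ctsc that the choice of genes left out, was at 1959 and 1734, a difference of -0.18. These are RNA values and do not measure the activation of a target by Ctsc. Neutrophil markers were also lower in the knockout (median -0.92), and their part in the Ctsc values was not tested.

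Ctsz, a carboxypeptidase, was at 567 for the control and 299.6 for the knockout, a difference of -0.92. Ctsd, the main aspartic protease of lysosomes, was at 143 and 85.2, a difference of -0.75, and its second sequence, at 48.7 and 82.6, was at least 1.16-fold higher. The knockout value of the brighter sequence was only 1.13 times the random-sequence level and the control value of the dimmer one was below it. The direction for Ctsd therefore rests on values near background. Ctsa, the protective protein that stabilises beta-galactosidase and neuraminidase, was at 185 and 144, a difference of -0.36. Ctso, a cysteine cathepsin, was at 528 and 474, a difference of -0.15.

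The cysteine proteases Ctsb and Ctsl stood on the higher side. Ctsb, an abundant lysosomal endopeptidase and dipeptidase, was at 520 for the control and 761 for the knockout, a difference of 0.55. Ctsl, an endopeptidase, was at 84.7 and 157, a difference of 0.90, and its control value was 1.19 times the random-sequence level. Ctsb and Ctsl each had 1 sequence on the array. Macrophage markers were higher as well (median 0.58, with the brightest, Adgre1, at 0.11), and their part in these values was not tested. Ctsh, an aminopeptidase, was at 172 and 211 on its brightest sequence, a difference of 0.29. Its other sequence gave 205 for the control and 47.9 for the knockout, which is below background and makes it at least 2.72-fold lower, so the sequences of Ctsh disagreed in direction. Ctsf, the remaining cysteine cathepsin, was below the random-sequence level on both arrays.

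Of the 4 tissue-restricted cathepsins 3 were detected, with a median of -0.18. Ctse, an aspartic protease of endosomes in blood and epithelial cells, was at 5099 for the control and 5318 for the knockout, a difference of 0.06. Of its dimmer sequences 1 differed by 0.84 (459 and 821), and the other (33.9 and 102) was at least 1.44-fold higher, so all of its sequences were on the higher side. Ctss, the protease that trims the invariant chain for antigen presentation, was at 509 and 359, a difference of -0.51. Its other sequence was at 593 and 164, a difference of -1.86, so both were lower. Ctsk, the collagenase of osteoclasts, was at 331 and 292, a difference of -0.18, while Ctsw, of cytotoxic lymphocytes, was not detected.

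Of the LAMP genes Lamp1 was lower in the knockout, and Lamp2 was not detected. Lamp1 was at 181 for the control and 74.4 for the knockout (chromosome 8, 13159134 to 13175338, MM9). As the knockout value was below the random-sequence level, Lamp1 was at least 2.39-fold lower, measured by 1 sequence of 3 probes. Lamp2, which also serves as a receptor in chaperone-mediated autophagy, was at 54.2 and 31.9 and thus at or below that level on both arrays, so it has no fold. Lamp5, a LAMP of neurons and some dendritic cells, is on the array under an older name outside the naming rule, and was at 152 and 214, a difference of 0.49.

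**Figure D3:**
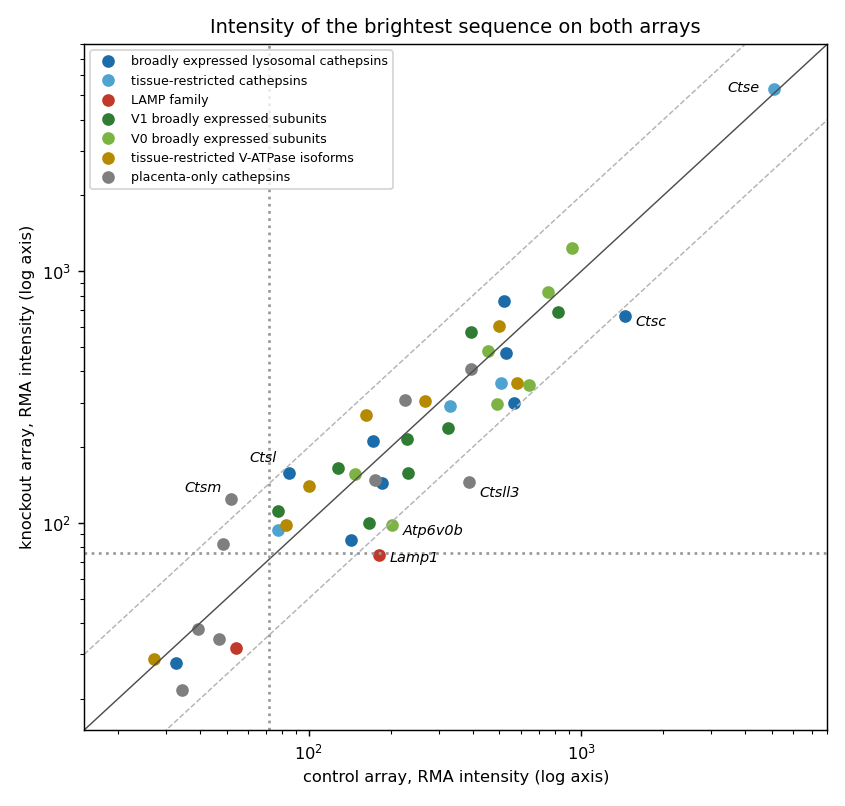
Intensity of the brightest sequence of each of the 46 genes on the control array (x, log axis) and the knockout array (y, log axis), coloured by role. The solid line is equality, dashed lines mark 2-fold, and dotted lines are the random-sequence levels of 71.3 and 75.7. Lamp1 lies just under the knockout's dotted line, while Ctsc lies well above both.

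In the V0 part of the proton pump all 7 broadly expressed subunits were detected, 3 lower and 4 higher, with a median of 0.08. Atp6v0b, a proteolipid of the proton-carrying ring, was at 201 for the control and 98.4 for the knockout, a difference of -1.03 (chromosome 4, 117556934 to 117559934, MM9). Its second sequence was below background on both arrays. Atp6v0c, the main proteolipid of the same ring, was at 148 and 157, a difference of 0.08. The 2 ring genes thus differed unequally.

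Atp6v0e, a small membrane subunit, was at 645 for the control and 352 for the knockout, a difference of -0.87, with a second sequence below background on both arrays. Atp6v0d1, which links the ring to the central stalk, was at 491 and 298, a difference of -0.72. Atp6v0e2, a second form of the small subunit, was at 454 and 480.5, a difference of 0.08. Of this part of the pump, the small subunit Atp6v0e and the linker were lower and the other small subunit was not.

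The large a subunits form the proton path and steer the pump to different organelles. Atp6v0a1 and Atp6v0a2 were not lower on their brightest sequences, while Atp6v0a4, a tissue-restricted one described below, differed by -0.70. Tcirg1, a further a subunit gene that the naming rule does not reach, was at 820 and 790. Its difference was -0.05, with sequences from -0.05 to 0.17. Atp6v0a1 was at 754 for the control and 823 for the knockout, a difference of 0.13. All 4 of its detected sequences were higher, by 0.13 to 1.08, and the fifth, which was not detected, differed by -0.08. Atp6v0a2 was at 921 and 1241, a difference of 0.43. Its second detected sequence gave 197 and 60.6, the latter below background, and was at least 2.60-fold lower, so the direction for Atp6v0a2 depends on the sequence.

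In the V1 part 7 of 8 broadly expressed subunits were detected, 5 lower and 2 higher, with a median of -0.26, and none reached 2-fold. Atp6v1c1, which helps to join V1 to V0, was at 166 for the control and 99.4 for the knockout, a difference of -0.74. Atp6v1h, which regulates that joining, was at 232 and 158, a difference of -0.55. Atp6v1b2, an ATP-binding subunit, was at 325 and 239, a difference of -0.44, and all 3 of its sequences were lower. Atp6v1d and Atp6v1f, of the central stalk, differed by -0.26 (822 and 688) and -0.09 (230 and 216). The higher ones were peripheral stalk genes: Atp6v1g1 was at 393 and 575, a difference of 0.55, and Atp6v1e1 at 128 and 165, a difference of 0.37. Atp6v1a, the catalytic subunit, was at 77.3 and 111 and was not detected.

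Of the 7 tissue-restricted subunit isoforms, known best from kidney, brain, testis or bone, 5 were detected, 1 lower and 4 higher, with a median of 0.29. Atp6v0a4, the a subunit of kidney intercalated cells, was at 582 for the control and 358 for the knockout, a difference of -0.70. Atp6v1e2, of testis, was at 163 and 268, a difference of 0.72. The others detected were Atp6v1g2 (0.49), Atp6v1c2 (0.29) and Atp6v1b1 (0.19), and a further sequence of Atp6v1g2, not detected, was at least 1.52-fold lower. Atp6v0d2, of osteoclasts and macrophages, and Atp6v1g3 were not detected. These isoforms and the broadly expressed V1 subunits had medians on opposite sides of 0, and that contrast was not tested. The median of the broadly expressed V0 subunits, 0.08, was on the isoforms' side. Among genes above the 75th percentile the V1 and isoform medians both changed sign, to 0.15 and -0.21.

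The placenta-only cathepsins form a cluster of rodent genes on chromosome 13 and are presumed silent in blood. If they are, their values show what the array gives without expression, but their silence in the sorted cells was not tested. Of 9 genes 4 were detected, with a median of -0.09. Cts3 was at 175 for the control and 148 for the knockout, Ctsj at 225 and 309, and Ctsq at 393 and 409, differences of -0.24, 0.46 and 0.06. Presumed silent genes thus gave intensities within the detected range, with Ctsq at 5.51 (control) and 5.40 (knockout) times the random-sequence level. That bears on every member above of like or lower intensity, and not only on those near the random-sequence level. Cts6 (46.9 and 34.5), Cts8 (34.3 and 21.6) and Ctsr (39.3 and 37.9) were below the random-sequence level on both arrays. Cts7 (48.6 and 82.6) was at least 1.16-fold higher and Ctsm (51.9 and 124) at least 1.75-fold higher in the knockout, both undetected, and the second sequence of Ctsm differed by -0.024.

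Ctsll3 was at 387 for the control and 145 for the knockout, a difference of -1.42. With it, 1 of the 4 detected placental cathepsins (25%) was at least 2-fold lower, beside 7.29% of all detected genes. Its place among placenta-only genes is doubtful, since the array describes its sequence as a clone from a tongue library. It was listed with them in the plan, and leaving it out was not planned. Without it the median of the other placental cathepsins was 0.06, and none of the 3 detected was at 2-fold. Leaving out all placental genes, 31 members were detected, 3 of them lower by 2-fold or more (9.68%, beside the 7.29% of all genes) and the median stayed at -0.15.

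Genes that act with these members were taken from 6 lists. Together 122 were on the array and 93 were detected, of which 17 were at least 2-fold lower (18.3%, beside 7.29% of all genes) and 1 was higher (1.08%, beside 6.41%). Their median was -0.05, so the genes past 2-fold were a minority of the lists. The accessory and assembly genes of the pump, listed together with the a subunit gene Tcirg1, came to 9 detected genes. Among them Atp6ap2, the accessory subunit also called the prorenin receptor, was at 1829 for the control and 764 for the knockout, a difference of -1.26. Ncoa7 differed by -1.11 on the brightest of 8 sequences, which ranged from -1.11 to 0.58, and Tldc2 by 1.15 from a control value near background. Atp6ap1, the other accessory subunit, was at 232 and 333, a difference of 0.52.

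Of 27 detected lysosomal hydrolases and activators 6 were at least 2-fold lower (22.2%, beside 7.29% of all detected genes). None was at least 2-fold higher (beside 6.41%), and the median was -0.10. Man2b1, the lysosomal alpha-mannosidase, was at 368 for the control and 142 for the knockout, a difference of -1.37. Gusb, beta-glucuronidase, was at 529 and 209, a difference of -1.34, and its 4 sequences ranged from -1.34 to -0.02. Naglu, which degrades heparan sulphate, was at 187 and 85.7, a difference of -1.13, and Gm2a, the activator of GM2 ganglioside breakdown, was at least 2.25-fold lower. Psap, the precursor of the saposins, and Lipa, the acid lipase, were the others.

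Of 21 detected genes of the lysosomal membrane 2 were at least 2-fold lower, with a median of 0.04. That share of 9.52% was near the 7.29% of all detected genes. Cd63, a tetraspanin of late endosomes and granules, was at 1904 for the control and 609 for the knockout, a difference of -1.64. Ctns, the cystine transporter, was at 182 and 82.4, a difference of -1.14, with its second sequence at 0.04. The highest difference among them was 0.88. Of the 21 detected genes 8 were lower and 13 higher.

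The genes that sort hydrolases to lysosomes stood lowest of the lists, with a median of -0.53 and 9 of 11 detected genes lower. Of the 11, 4 were at least 2-fold lower (36.4%, beside 7.29% of all detected genes). Ap3s1, a subunit of the AP-3 coat that carries cargo to lysosome-related organelles, was at 290.5 for the control and 109 for the knockout, a difference of -1.42, and its 3 sequences ranged from -2.07 to -1.42. Ap3b1, another AP-3 subunit, was at least 2.16-fold lower, while Ap3d1 differed by -0.13. Gnptg, a subunit of the enzyme that tags hydrolases with mannose 6-phosphate, differed by -1.33 and Gga3, an adaptor for the receptors of that tag, by -1.29, but further sequences of both genes lay near or above 0, at up to 0.34 and -0.01.

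Of 20 detected regulators 2 were at least 2-fold lower, with a median of -0.00. That share of 10% was near the 7.29% of all detected genes. Lamtor2, of the Ragulator complex that holds mTORC1 on lysosomes, was at 637 for the control and 228 for the knockout, a difference of -1.48, and its second sequence differed by -0.64. Arl8b, a small GTPase that moves lysosomes outward, was at 349 and 172, a difference of -1.02. The readers of the CLEAR element, given for their role, were on the higher side on their brightest sequences. Tfeb was at 735 and 1045, a difference of 0.51 (4 sequences from -0.38 to 0.51), and Tfe3 at 4332 and 5755, a difference of 0.41 (0.41 and 0.70 on its sequences). Mitf was at 577 and 1131, a difference of 0.97, with 5 sequences from -0.89 to 1.55. Their relative Tfec was not detected and was at least 1.77-fold lower. Of 5 detected cystatins, a family that includes inhibitors of cysteine cathepsins, Cst3 was at 1195 and 540, a difference of -1.15. The list's median was 0.07. Of the genes on the 6 lists with a promoter window, 16 detected genes held TCACGTG, 11 of them lower with a median of -0.27. Another 58 did not, 32 of them lower with a median of -0.04. Counted at 2-fold the order was reversed. At least 2-fold lower were 2 of the 16 (12.5%) and 13 of the 58 (22.4%), beside 7.29% of all detected genes.

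**Figure D4:**
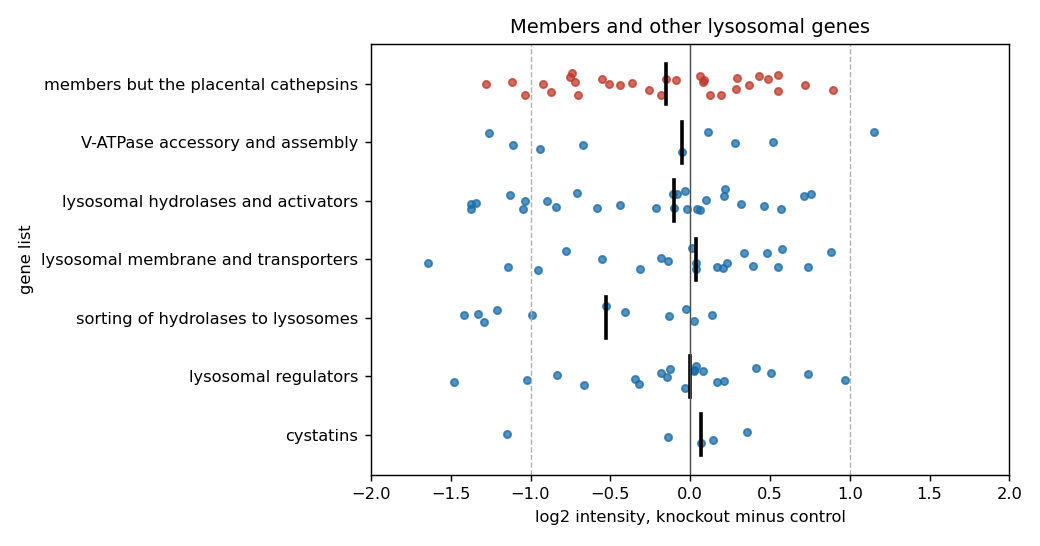
Log2 difference in intensity, knockout minus control, of each detected gene of 7 lists (points, spread vertically at random for display; 1 array per genotype). The top row shows the 31 detected members other than placental cathepsins, black bars are list medians and dashed lines mark 2-fold. The sorting list has the lowest median, -0.53, and 1 gene of all lists, Tldc2, lies beyond the upper line.

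Agreement between sequences could be followed in the 6 members with several detected sequences. Ctsc and Ctss were lower on all of them, Atp6v0a1 and Ctse were higher on all, and Ctsh and Atp6v0a2 were split. The pooled SD of their differences as measured was 0.94 over 14 sequences, beside 0.66 for all genes. Of the 4 members at least 2-fold lower, only Ctsc had a second detected sequence, and Lamp1 and Ctsll3 had no other sequence on the array.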

How the data were processed

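Each genotype had 1 NimbleGen array labelled with Cy3. The authors deposited, per array, 1 linear intensity per sequence; the submitters' processing notes name RMA (background correction, normalization between arrays and summary over probes), with its version not given in the sources used here. RMA pulls the arrays' distributions together, so a shift of most genes would not be visible. Per the file headers and columns, coordinates are on MM9 and 44155 of the 44170 sequences have 3 probes (15 have fewer). A symbol was given for 41886 sequences and none for 2284. Across sequences, which are no replicates, Pearson's r between the log2 values was 0.922.

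Intensities were turned into log2 with no further scaling. A gene was represented by the sequence of highest mean log2, was detected above the median (percentile 50) of its array on at least 1 array, and was counted at 2-fold, a log2 difference of 1. For bounds, the random-sequence level (5000 probes per array) replaced a value at or below it. The number of arrays limits the precision. Members and lists were chosen with earlier results of these data known. Values were given by a rule for members at 2-fold or more, the 12 brightest, every placental cathepsin, Lamp1, Lamp2, Ctsb, Ctsd and Ctsl. The rule also took up to 4 genes per list at 2-fold, and defining markers. Other members, Ctsg, Lamp5, Tcirg1, Atp6ap1, Ap3d1, Mecom, Prdm16, Klrb1c and the TFEB family were added after their values were seen. Promoters came from RefSeq tables (GRCm38.p6); they were used only for letters, never with MM9 coordinates. Alternatives were the authors' series table, centring, quantile normalization, loess (span 0.3), an offset of 50, other sequences per gene, other filters and sizes, and list means. Only the choice of sequence and the counting at 2-fold were tested on simulated data, with less noise than the spread between sequences. Python 3.11.15, numpy 2.4.6, pandas 2.3.3, statsmodels 0.14.6 and matplotlib 3.10.9 were used.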

Additional observations from a re-analysis of the deposited data

How the results depend on the processing

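The results were recomputed under 16 alternative settings. Shares of all genes at 1.5-fold and 3-fold were not counted, so counts at those sizes have no such yardstick. The 4 members at least 2-fold lower became 2 with an offset of 50 or above the 75th percentile, 10 at 1.5-fold and 0 at 3-fold; the 0 higher became 1 without a filter and 2 at 1.5-fold. Above the 75th percentile the medians of the V1 subunits and of the tissue-restricted pump isoforms turned, to 0.15 and -0.21, and no LAMP was left. Group medians also changed sign for the placental cathepsins, -0.09, on averaged sequences (0.16) and without Ctsll3 (0.06). The setting without Ctsll3 was not planned. For the V0 subunits the median of 0.08 changed sign with the mean of the group (-0.27). The restricted cathepsins' median was -1.02 on the dimmest sequences, and the LAMP median -0.39 with names updated through RefSeq, an alternative added after seeing the data. With sequences averaged per gene, those at 2-fold either way came to 1 in the membrane list, 2 in the sorting list, 4 hydrolases (from 6) and 2 accessory genes (from 3); at 1.5-fold they came to 5 accessory genes, 11 hydrolases, 6 membrane genes and 6 regulators. Of 315 recomputed differences of single members 18 moved by more than the spread between sequences, each of them on the mean or dimmest sequence. A further 1, that of Ctsm on the dimmest sequence, also moved by more than that spread (1.26 to -0.024) and was counted apart as reversed. The sign changed for 4 members on the mean sequence and for 11 on the dimmest, 12 members in all, among them Ctsd (0.76 on the dimmest), Ctsh (-2.10), Atp6v0e (0.77), Atp6v1g2 (-1.73) and Ctsm (-0.024), several of them under background. The cause of these differences was not tested. No paired analysis was possible because with 1 array per genotype there are no replicate numbers to pair. Closeness to background limits the values of Lamp1, Lamp2, Ctsd, Ctsl and Atp6v0b, among others. The series table holds only sequences at 50 or more on both arrays, so 39 of the 46 members could be set against it.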
